A study of Homo sapiens with 6 samples.

Results

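The 111 genes described here encode the proteins of the mitochondrial ribosome and the enzymes that charge tRNAs with amino acids. They were chosen by symbol among the 19970 protein-coding genes of the RefSeq table (GRCh38.p14) on chromosomes 1 to 22 and X, and no measured value was used. The rule took 77 mitochondrial ribosomal protein genes, of which 49 carry MRPL symbols and 28 carry MRPS symbols, and 34 aminoacyl-tRNA synthetase genes. MRPL genes are called large subunit genes here and MRPS genes small subunit genes, by symbol alone. The symbol does not always give the subunit in which the product sits. Of the synthetase genes, 17 have symbols ending in ARS2, the mitochondrial enzymes, and 17 have symbols ending in ARS1, the cytosolic enzymes. The assay was ATAC-seq on hTERT-RPE1, a human retinal pigment epithelial line made immortal with telomerase. Nuclei are exposed to the transposase Tn5, which cuts and tags DNA where chromatin is open. All 6 libraries are wild type, and no treatment is named. Their titles give 3 libraries to the set R1 and 3 to the set R2, without saying how the sets differ.

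For either set the libraries were pooled into 1 list of regions. The values below therefore carry no error between libraries, and no difference was tested. The R1 list held 142865 regions on these chromosomes and the R2 list 134351. The number of fragments over a summit, recovered from the deposited fold and p-value, had a median of 72 in each list. The fold of a region is its enrichment over local background as the authors deposited it, and it is given here with its percentile among all regions of the same list. A gene-end region is a region that comes within 1000 bp of the gene's first or last base, and the strongest one by fold stands for the gene. Among 9 marker genes of retinal pigment epithelium, 7 had such a region in R1 and in R2, against 73.9% of all protein-coding genes, and RPE65 and TYR had none in either list. The median percentiles of these 7 were 38.2 in R1 and 46.9 in R2, below the 71.6 and 72.1 of all genes with a region. Their folds ran from 2.55 and 2.30 at BEST1 to 10.9 and 10.5 at PMEL, and the marker count was near the share over all genes.

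Mitochondria translate a small set of respiratory chain subunits from their own genome, on ribosomes whose RNA is made in the organelle and whose proteins are all encoded in the nucleus. The charging enzymes are nuclear too. Most amino acids have separate genes for the mitochondrial and the cytosolic enzyme, but GARS1 and KARS1 each encode both forms, and QARS1 has no mitochondrial counterpart because mitochondria make glutaminyl-tRNA by converting glutamate already on the tRNA. Factors of the ETS family and YY1 are known to bind near the starts of many such nuclear genes.

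Nearly all of these genes were marked by open chromatin. A gene-end region was present in both lists for 110 of the 111 genes, against 73.9% of all protein-coding genes. The count was 76 of 77 for the mitochondrial ribosomal protein genes and 34 of 34 for the synthetases, with 17 of 17 in each synthetase class. Each list alone held a region for 110 members, against 75.5% of all protein-coding genes in R1 and 75.0% in R2. A region at or above the median fold of its list was present in both lists for 105 members, against 57.3% of all protein-coding genes. The top 10% of regions by fold held 36 members in both lists, against 9.74%. These were 20 large subunit genes, 9 small subunit genes, 4 mitochondrial synthetase genes and 3 cytosolic ones.

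MRPL24, a large subunit protein gene on chromosome 1, was the exception. Its nearest R1 region (chromosome 1, 156740499 to 156741712) stopped 1004 bp short of the gene's end and its R2 region 1015 bp short, both just outside the limit of 1000 bp. Those regions had folds of 8.56 in R1 and of 8.46 in R2, above the median gene-end region. They lie over a start that RefSeq lists inside the gene's interval. The members nearest to the limit on the other side were MRPL44, at 132 bp in each list, and FARS2, the mitochondrial phenylalanine enzyme gene, at 7 bp in R1 and 45 bp in R2. A gene end lay inside a region in both lists for 108 of the 111.

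Regions covered the starts themselves. RefSeq's promoter table gave a strand and at least 1 transcription start for 96 of the 111 members, and a start lay inside a region in both lists for all 96 of them. They include MRPL24. The share over protein-coding genes with a listed start was 65.1%, and expression of these genes was not measured here. The R1 regions reached a median of 624 bp upstream and 669 bp downstream of member starts, against 614 and 784 bp over all protein-coding genes with a start in a region. In R2 the medians were 620 and 682 bp for members, against 621 and 832 bp. The summit fell within 200 bp of the start for 76 of 96 members in R1 and 78 of 96 in R2. The shares over all protein-coding genes with a start in a region were 59.8% in R1 and 58.7% in R2. Between the lists, the summits of a member's strongest regions lay a median of 33 bp apart, against 46 bp over all genes with a region in both lists.

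**Figure D1:**
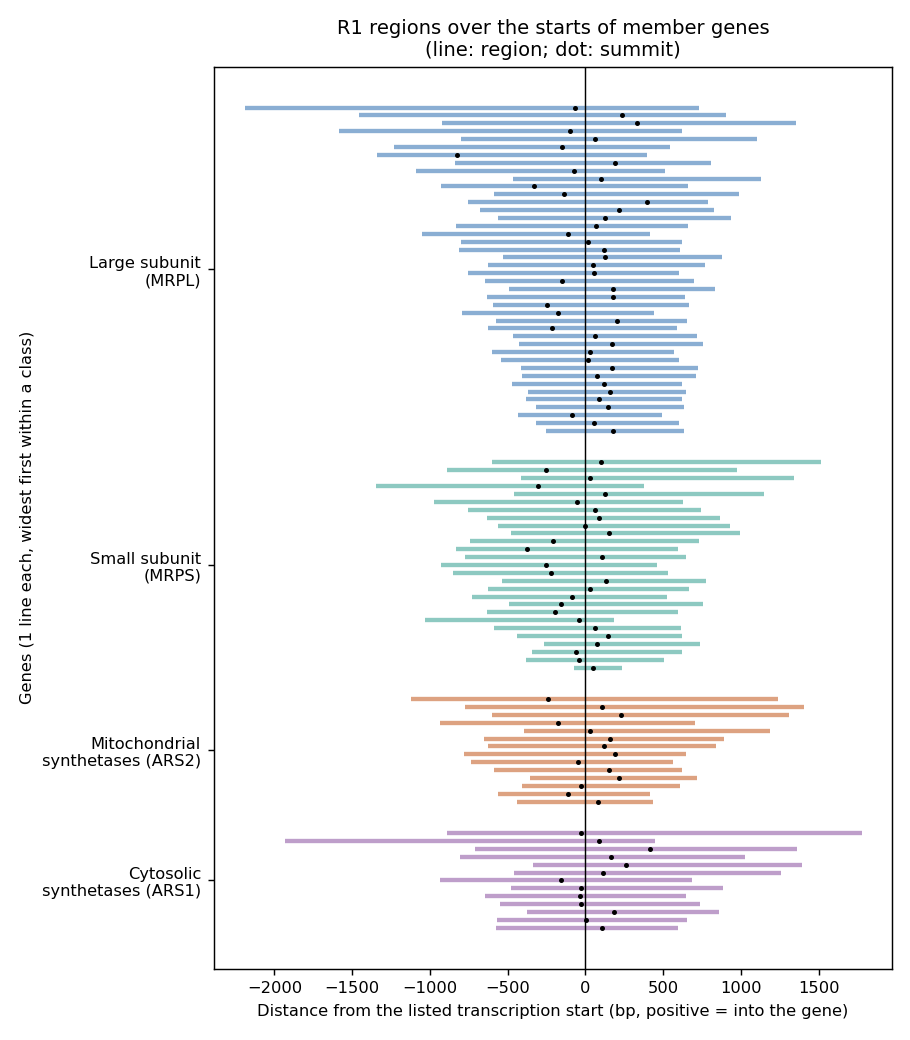
Extent of the R1 region over the listed transcription start of 96 member genes (horizontal axis, bp from the start, positive into the gene), with 1 line per gene, the widest first within each class, and a dot at the summit. Every line crosses the start, and 76 of the 96 dots lie within 200 bp of it.

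Many of these regions also lay at a neighbouring gene. The strongest region also lay at the end of another protein-coding gene for 54 of 110 members in R1, against 28.4% of all protein-coding genes with a region in both lists. Of 96 members with a listed start, 28 faced the start of another protein-coding gene on the opposite strand within 1000 bp, against 12.3%. The mitochondrial ribosomal protein genes gave 20 of 69 and the synthetases 8 of 27. ATAC-seq carries no strand, so the share of a region that belongs to each gene cannot be told apart. The partners included EME1, a DNA repair endonuclease subunit gene 45 bp from MRPL27, and PSMA2, a proteasome subunit gene 202 bp from MRPL32. TCP1, a chaperonin subunit gene, lay 210 bp from MRPL18, and ORC3, an origin recognition gene, 148 bp from RARS2.

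In 3 places the partner was itself one of the 111 genes. SARS2, the mitochondrial serine enzyme gene, and MRPS12, the gene for the ribosomal protein at the decoding site, start 181 bp apart on chromosome 19. They shared 1 region (chromosome 19, 38930115 to 38931541 in R1) with folds of 8.86 in R1 and of 8.71 in R2. HARS2 and HARS1, the mitochondrial and cytosolic histidine enzyme genes, start 85 bp apart on chromosome 5 and shared a region (chromosome 5, 140690722 to 140692018 in R1) with folds of 9.65 and 9.38. MRPS11 and MRPL46, a small and a large subunit gene, start 320 bp apart on chromosome 15 under a region (chromosome 15, 88466969 to 88468436 in R1) with folds of 10.8 and 10.9. Because of such sharing the 110 members with a region rested on 108 different strongest regions in each list.

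The sequences under these regions are shown where MRPS12 faces SARS2, where HARS2 faces HARS1, and for 1 gene of each class. The stretch between MRPS11 and MRPL46 is not shown. For each class the gene with the highest mean percentile was taken. It was chosen among those whose strongest region lies at the listed start and whose promoter holds 1 of the main motifs. They run from 250 bases before to 50 bases from the start, in the direction of the named gene, and come from RefSeq (GRCh38.p14). Capitals mark CCGGAAG, the letters bound by ETS factors such as GABPA, AAGATGGC, the letters bound by YY1, and TGATGNAA, the letters bound by ATF4, each on either strand. The MRPS12 stretch also holds the start of SARS2 on its left, read leftwards, and the HARS2 stretch likewise holds the start of HARS1. Positions count from 0 at the start.
MRPS12 (chr19:38930694-38930993, plus strand): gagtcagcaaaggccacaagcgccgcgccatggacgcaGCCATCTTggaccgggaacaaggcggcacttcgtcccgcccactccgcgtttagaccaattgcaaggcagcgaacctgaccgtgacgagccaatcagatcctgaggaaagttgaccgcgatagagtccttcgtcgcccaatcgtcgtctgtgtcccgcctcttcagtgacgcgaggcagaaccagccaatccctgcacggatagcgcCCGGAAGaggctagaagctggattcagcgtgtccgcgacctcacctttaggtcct
HARS2 (chr5:140691205-140691504, plus strand): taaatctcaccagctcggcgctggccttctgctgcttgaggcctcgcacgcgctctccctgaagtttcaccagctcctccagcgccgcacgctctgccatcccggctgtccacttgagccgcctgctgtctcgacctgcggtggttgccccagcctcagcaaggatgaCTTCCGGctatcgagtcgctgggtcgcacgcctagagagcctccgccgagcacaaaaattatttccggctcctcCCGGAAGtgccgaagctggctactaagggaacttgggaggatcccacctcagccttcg
MRPL27 (chr17:50373135-50373434, minus strand): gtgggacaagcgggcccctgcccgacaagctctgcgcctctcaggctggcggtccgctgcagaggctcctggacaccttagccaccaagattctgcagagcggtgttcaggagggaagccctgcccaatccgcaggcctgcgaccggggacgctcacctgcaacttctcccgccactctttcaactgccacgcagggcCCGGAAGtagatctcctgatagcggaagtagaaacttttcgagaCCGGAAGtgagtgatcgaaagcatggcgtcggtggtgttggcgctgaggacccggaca
MRPS22 (chr3:139343744-139344043, plus strand): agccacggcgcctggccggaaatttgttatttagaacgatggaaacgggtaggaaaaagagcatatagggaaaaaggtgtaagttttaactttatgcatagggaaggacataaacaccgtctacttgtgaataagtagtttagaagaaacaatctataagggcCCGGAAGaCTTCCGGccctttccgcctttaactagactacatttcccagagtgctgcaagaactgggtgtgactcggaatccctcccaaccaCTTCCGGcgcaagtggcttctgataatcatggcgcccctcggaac
WARS2 (chr1:119140623-119140922, minus strand): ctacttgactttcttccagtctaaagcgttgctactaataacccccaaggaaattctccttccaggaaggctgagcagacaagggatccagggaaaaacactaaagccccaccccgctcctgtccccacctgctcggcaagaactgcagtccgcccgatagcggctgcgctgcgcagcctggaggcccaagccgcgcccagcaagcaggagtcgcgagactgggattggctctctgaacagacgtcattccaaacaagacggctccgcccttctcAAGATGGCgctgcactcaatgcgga
RARS1 (chr5:168486221-168486520, plus strand): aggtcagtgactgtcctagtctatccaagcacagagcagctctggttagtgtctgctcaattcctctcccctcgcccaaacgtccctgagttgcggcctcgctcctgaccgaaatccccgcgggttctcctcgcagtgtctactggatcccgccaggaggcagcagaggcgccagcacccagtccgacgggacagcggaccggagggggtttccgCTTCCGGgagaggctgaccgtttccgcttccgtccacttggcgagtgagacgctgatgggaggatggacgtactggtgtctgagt

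Between HARS2 and HARS1 the ETS letters occur once for each gene, from position -8 of HARS2 and from position -9 of HARS1, each in the sense of its own gene. In the stretch of MRPS12 and SARS2 they occur once, from position -5 of MRPS12, and the YY1 letters once, from position 24 of SARS2 in its sense. MRPL27 holds the ETS letters at -52 and at -8. MRPS22 holds them 3 times. WARS2 has the YY1 letters from position 25, and RARS1 the ETS letters from position -35 on the opposite strand. A match of letters is a description of the sequence, and binding was not measured.

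In bulk nuclei, more open copies and more open cells cannot be told apart, so fold is a level over the culture. By that level both symbol classes of mitochondrial ribosomal protein genes ranked above the usual gene. The strongest gene-end regions of the large subunit genes had a median fold of 10.1 in R1 and of 9.74 in R2, which lie at median percentiles of 89.0 and 88.1. For the small subunit genes the median folds were 9.83 and 9.78, at percentiles 87.7 and 88.4. Over all 14748 protein-coding genes with a region in both lists the median folds were 7.43 and 7.49, at percentiles 71.6 and 72.1. Of the 76 mitochondrial ribosomal protein genes with a region, 58 lay above that median in both lists, against 6614 of all 14748 genes. The regions of all members had median widths of 1414 bp in R1 and 1407 bp in R2, against 1362 and 1439 bp. The number of fragments over the summit had a median of 356 in R1 and 357 in R2 for members, against 287 and 303.

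Genes and widths are ranked here by their mean over the lists. The strongest large subunit gene was MRPL27, whose bacterial homologue sits at the peptidyl transferase centre. Its region had folds of 15.4 in R1 and of 15.2 in R2, with 465 and 450 fragments over the summit, and placed it above percentile 99.8 in each list. MRPL13, on chromosome 8, had folds of 15.4 and 14.2, and MRPL42, whose product has no bacterial homologue, had 14.5 and 13.8. All 3 regions lay among the top 10% of both lists. At the low end, MRPL35 had folds of 4.48 in R1 and of 4.53 in R2, MRPL23 had 4.46 and 5.99, and MRPL49 had 5.21 and 5.12. MRPL35 and MRPL23 have no listed start, so the end of the gene at which their regions lie was not established. MRPL49 starts 49 bp from FAU, a cytosolic ribosomal protein gene read in the other direction, and both share that region. The MRPL49 summit carried 309 fragments in R1 and 308 in R2, against medians of 287 and 303 over all genes. The local background there was 58.5 fragments in R1 and 59.3 in R2, against medians of 35.0 and 36.2.

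Genes for the stalk and its base, where translation factors dock, were chosen for their roles with their values known. MRPL11, at the base of the stalk, had folds of 11.1 in R1 and of 11.2 in R2. MRPL10 had 9.62 and 10.3, and MRPL12, the stalk protein itself, had 7.94 and 8.64. MRPL58, a peptidyl-tRNA hydrolase built into the ribosome, had 8.57 and 9.40. The 4 genes thus lay above the median gene-end region in both lists, as did 6614 of all 14748 genes with a region. By mean width the widest regions of the large subunit class were those of MRPL36, with 2922 bp in R1 and 2817 bp in R2 and folds of 5.95 and 5.62, and MRPL14, with 2358 and 2288 bp and folds of 7.07 and 6.25, although in R1 alone the MRPL23 region, at 2474 bp, was wider than that of MRPL14. The MRPL36 region also lies at the end of NDUFS6, a respiratory complex I gene, and the MRPL14 region at the end of TMEM63B.

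Among small subunit genes MRPS17 came first by mean percentile, with folds of 13.8 in R1 and of 14.2 in R2. MRPS22, for a protein specific to the mitochondrial ribosome, had 12.7 and 14.5 and was the higher of the pair in R2, and MRPS31, another such protein, had 12.2 and 12.8. MRPS34 was the weakest, with folds of 3.63 in R1 and of 4.71 in R2 in a region shared with the end of EME2. MRPS2 had 6.24 and 6.44, and MRPS6 had 6.84 and 6.75. The 3 MRPS18 paralogs are all homologues of 1 bacterial protein. MRPS18C had folds of 10.9 in R1 and of 10.7 in R2, MRPS18A, whose product sits in the large subunit despite its symbol, had 10.14 and 9.998, and MRPS18B had 8.11 and 7.35. For MRPS18B that strongest region lies at the far end of the gene, with ATAT1, while the region within 1000 bp of its start had folds of 4.88 and 4.604. MRPS27 had the most regions common to both lists within 50000 bp of its ends, with 25, against a median of 9 both for all members and for all protein-coding genes. CARS1 and VARS1 followed with 20 each, and MRPS30, MRPS33 and MARS2 had the fewest, with 2 each. The stretch searched is longer for long genes, whose windows at either end overlap less. MRPS27 spans 100838 bp, VARS1 18235 bp and MARS2 3027 bp. By mean width the widest small subunit regions were those of MRPS2, with 2122 bp in R1 and 2131 bp in R2, and MRPS26, with 1862 and 1657 bp. In R2 alone MRPS34, at 1730 bp, came before MRPS26.

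**Figure D2:**
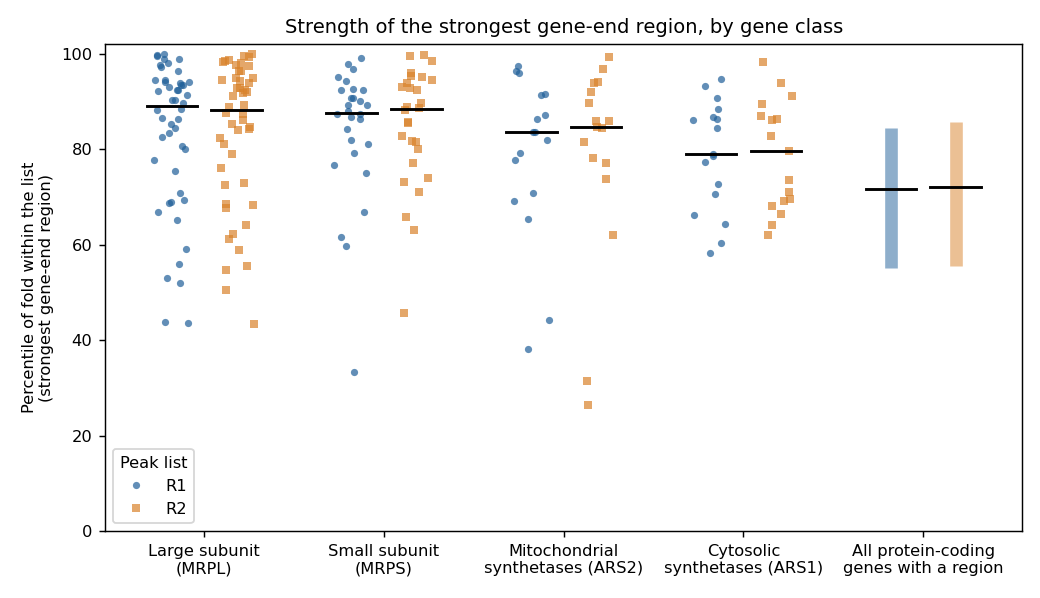
Percentile of fold within the list (vertical axis) of the strongest gene-end region of each member gene, by class, in R1 (circles) and R2 (squares), with class medians as black lines; at the right, the median and the interquartile range over all protein-coding genes with a region in both lists. The medians run from 89.0 for the large subunit genes to 79.1 for the cytosolic synthetases in R1, against 71.6 over all genes.

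By fold the synthetase genes lay between the mitochondrial ribosomal protein genes and all protein-coding genes with a region. The fragments over the summit had medians of 353 in R1 and 353.5 in R2 for synthetases, against 357.5 and 360.5 for mitochondrial ribosomal protein genes. Their local backgrounds had medians of 41.0 and 39.8 fragments, against 36.3 and 35.0. These are separate class medians, and what the gap in fold goes with was not tested. Mitochondrial synthetase genes had a median fold of 9.13 in R1 and of 9.16 in R2, which lie at percentiles 83.6 and 84.6. The cytosolic ones had 8.44 and 8.43, at percentiles 79.1 and 79.6. Whether the classes differ was not tested, since the lists give no spread between libraries. The order also rested on which region was counted. With regions within 1000 bp of a listed start alone, the median percentiles came to 81.2 in R1 and to 80.7 in R2 over 14 mitochondrial genes, against 79.1 and 79.6 over 13 cytosolic ones. Leaving out genes whose region lies at another protein-coding gene's end turned the order round in R1, with 79.2 for 9 mitochondrial genes against 85.4 for 10 cytosolic ones, but not in R2, with 86.0 against 84.8. Ranked by −log10 p-value in place of fold, the order was reversed in both lists, with 96.0 and 95.0 for the mitochondrial genes against 96.7 and 95.7 for the cytosolic ones.

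AARS2, the mitochondrial alanine enzyme gene, led its class with folds of 12.5 in R1 and of 13.9 in R2. WARS2, for tryptophan, had 12.03 and 11.01 with 553 and 519 fragments over the summit. HARS2, for histidine, had 11.86 and 11.96, but that region lies at the far end of the gene, with ZMAT2, and the region at its start had 9.65 and 9.38. The lowest values of the class also lay away from a listed start. FARS2 had folds of 4.48 and 3.30 at its outer end and 8.65 and 8.45 at a listed start inside the interval. CARS2, for cysteine, had 4.01 and 3.64 in a region shared with ING1, and 7.88 and 6.36 at a listed start. The region shared with ING1 had 550 fragments over the summit in R1 and 502 in R2 on local backgrounds of 136 and 137, whereas the outer FARS2 region had 39 and 28 fragments. YARS2, for tyrosine, had 6.68 and 6.31 in a region of 2360 bp in R1 and 2401 bp in R2, the widest of the class. The strongest gene-end region was also the strongest at a listed start for 89 of 95 members in each list. The 6 others were HARS2, FARS2, CARS2, TARS2, MRPL44 and MRPS18B.

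Among the highest cytosolic synthetase genes, RARS1, for arginine, had folds of 11.0 in R1 and of 12.6 in R2. QARS1, for glutamine, had 10.4 and 10.3. Both lay among the top 10% of both lists. The lowest by mean percentile were WARS1, for tryptophan, with 5.86 and 6.32, VARS1, for valine, with 6.10 and 6.55 in regions at different ends of the gene in R1 and R2, and KARS1 with 6.55 and 7.15, though in R2 alone GARS1 and YARS1 were below KARS1. GARS1, for glycine, had 7.61 and 6.82 in the widest region of the class, at 2667 bp in R1 and 2674 bp in R2. KARS1 and GARS1, the genes of this class that also supply the mitochondrial enzyme, lay below the class median. So did WARS1, VARS1, YARS1, TARS1, CARS1 and MARS1, and a link to the mitochondrial role was not tested.

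For 14 amino acids both a mitochondrial and a cytosolic gene could be compared within each list. The mitochondrial gene had the higher percentile in both lists for 7 amino acids, the cytosolic gene for 5, and the order differed between the lists for isoleucine and methionine. The widest gap in favour of the mitochondrial gene was for tryptophan, with WARS2 at percentiles 96.3 in R1 and 94.1 in R2 against 58.3 and 62.1 for WARS1. The widest in the other direction was for cysteine, with CARS2 at 38.2 and 31.5 against 77.4 and 73.6 for CARS1. Where both genes had a listed start, the regions at those starts gave 3 amino acids with the mitochondrial gene higher in both lists, 3 with the cytosolic gene higher and 3 with no common order. For histidine, 1 of the last 3, both genes share the region. The cysteine gap narrowed to 74.96 and 62.33 for CARS2 against 77.4 and 73.6 for CARS1. The tryptophan gap did not change, because the same regions were counted.

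**Figure D3:**
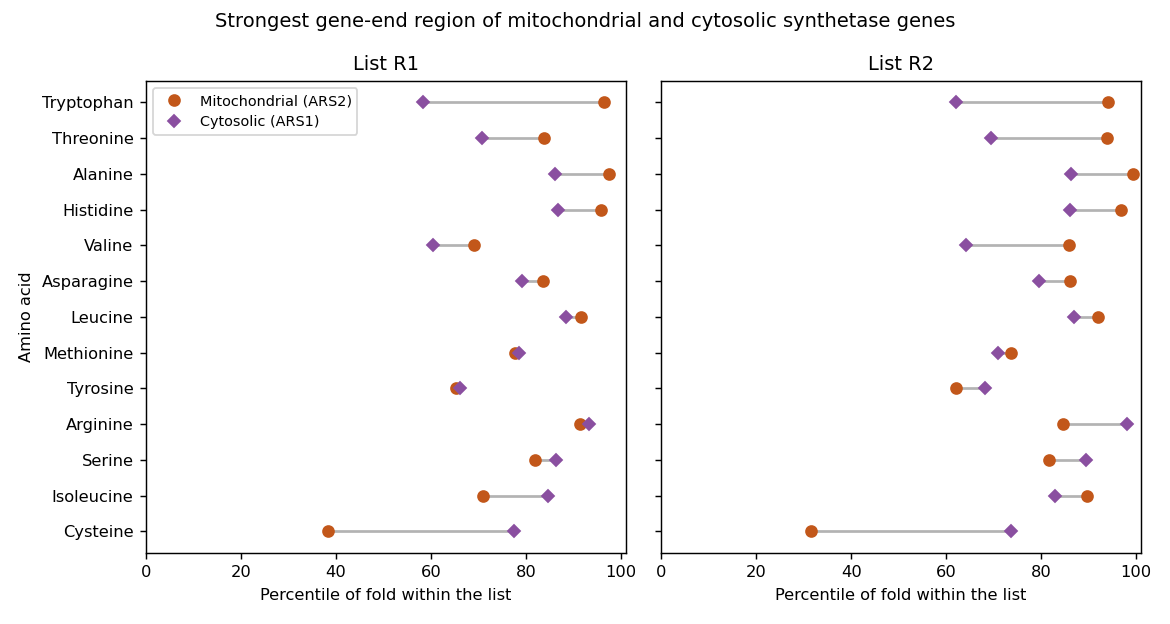
Percentile of fold within the list (horizontal axis) of the strongest gene-end region of the mitochondrial gene (circles) and the cytosolic gene (diamonds) for 13 of the 14 amino acids, in R1 (left) and R2 (right). Tryptophan and cysteine show the widest gaps, in opposite directions.

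Other genes of the pathway, listed by role with earlier results known, were marked as fully. All 6 genes listed as mitochondrial ribosome proteins with other symbols had such a region in R1 and R2. Their median folds were 7.14 in R1 and 7.62 in R2. By rank they stood near the usual gene, with a median percentile of 69.0 in R1, against 71.6 over all genes with a region. The R2 value was 73.1, against 72.1. Mitochondrial ribosomal protein genes chosen by symbol had 88.3 and 88.4. Of the 6 genes, 3 lay above the median gene in both lists. These counts and medians include KGD4, whose place in the ribosome was not established here. KGD4 had the highest folds of the list, with 13.8 and 13.5. The other listed genes ran from PTCD3, with 10.2 and 9.80, down to CHCHD1, with 5.15 and 4.73. The 32 genes for mitochondrial translation and ribosome assembly factors had median folds of 9.30 and 9.64, at percentiles 84.6 and 87.6. The elongation factor genes TSFM, with 14.1 and 14.6, and GFM1, with 13.8 and 15.1, led them, while TUFM, the elongation factor Tu gene, had 6.41 and 6.43. Synthetase subunits and partners with other symbols gave 10 of 10, with median folds of 10.5 and 10.6, at percentiles 91.0 and 92.3. EPRS1, the cytosolic glutamate and proline enzyme, had 10.6 and 11.0, whereas EARS2 and PARS2, the mitochondrial enzymes for these amino acids, had 9.74 and 8.25 and 8.46 and 8.11. The genes of the amidotransferase that makes mitochondrial glutaminyl-tRNA, QRSL1, GATB and GATC, had 10.6 and 10.7, 10.4 and 10.5, and 12.9 and 12.9. FARSA and FARSB, the subunits of the cytosolic phenylalanine enzyme, stood apart from each other, with 5.06 and 5.70 for FARSA and 10.1 and 9.97 for FARSB.

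Over all 96 member promoters, the ETS letters occurred in 44, against 14.1% of the promoters of all 15811 protein-coding genes with a listed start. They were found in 29 of 69 promoters of mitochondrial ribosomal protein genes, 6 of 14 of mitochondrial synthetases and 9 of 13 of cytosolic synthetases. Among the 10300 protein-coding genes whose start lay in a region in both lists the share was 19.4%. The YY1 letters occurred in 25 member promoters, against 3.86%, and in 20 of 69 mitochondrial ribosomal protein genes. Genes with a start in a region held them in 5.28% of cases. Of the 26 YY1 matches in members, 22 read in the sense of the gene and 19 lay over or past the start, at a median first position of 13. Over all protein-coding genes, 72.2% of matches read in the sense of the gene and 63.4% lay over or past the start. Either motif was present in 58 member promoters, against 17.1% of all promoters, and both in 11, against 0.892%. Promoters of members that face each other overlap, so a site in the overlap is counted once for each gene. The YY1 site at 24 of SARS2, for example, is also the opposite-strand match at -212 of MRPS12, and HARS1 and HARS2 share their ETS sites.

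Other motifs were searched as well. The full palindrome of NRF1, a factor known for nuclear genes of mitochondrial proteins, occurred in 2 member promoters, those of MRPL17 and MARS2, against 1.77%, and the first letters of it, GCGCATG, in 9, against 5.88%. CCAAT, the letters of NFY, occurred in 36 of 96, against 36.4%, with 20 of 69 ribosomal protein genes and 16 of 27 synthetases. GGGCGG, the letters of SP1, occurred in 59 (61.5%), against 58.3%. Among the 10300 genes whose start lay in a region in both lists, the SP1 share was 69.1%, above that of members. The shares in that set were 2.54% for the NRF1 palindrome, 7.81% for GCGCATG and 37.6% for CCAAT. The palindrome known as the RONIN motif occurred once, in MRPL57, against 0.67%. Member promoters had a median GC content of 61.5% and 24 CpG, against 62.7% and 22 CpG over all promoters. Genes with a start in a region in both lists had medians of 64.7% and 26 CpG, both above those of members. Some motifs overlap in letters, since GCGCATG is part of the NRF1 palindrome, so these counts are not independent.

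**Figure D4:**
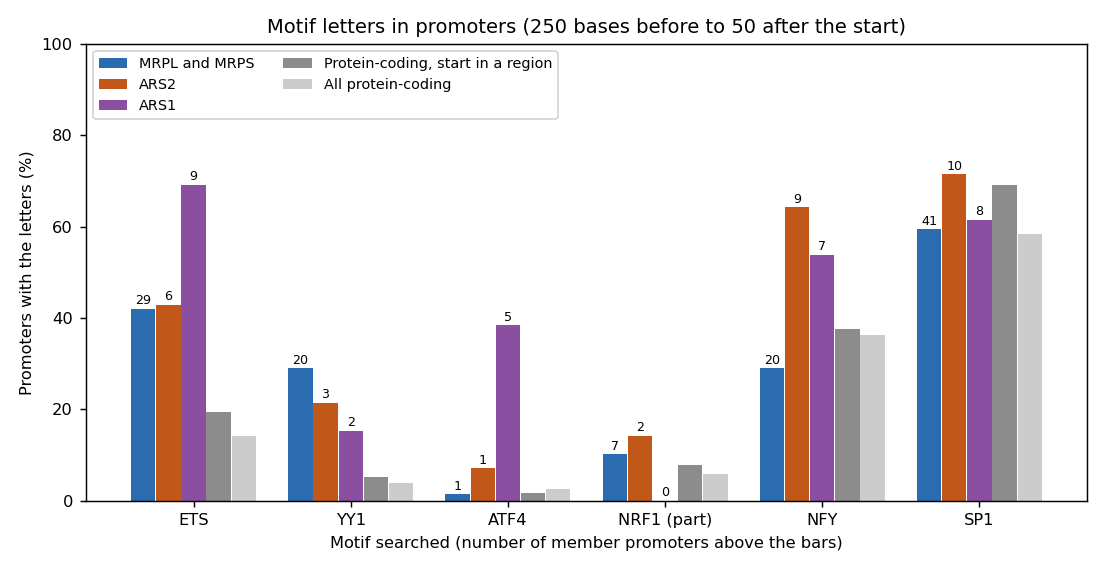
Share of promoters that hold each motif on either strand (%, vertical axis) for mitochondrial ribosomal protein genes (69 promoters), mitochondrial synthetases (14), cytosolic synthetases (13), protein-coding genes with the start in a region in both lists (10300) and all protein-coding genes (15811), with the number of member promoters above their bars. The ATF4 letters are in 5 of 13 cytosolic synthetase promoters and in 2.52% of all promoters.

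The ATF4 letters were found mostly in cytosolic synthetase promoters. ATF4 is the factor that raises genes of amino acid supply and tRNA charging when amino acids are short. Its letters TGATGNAA occurred in 5 of 13 cytosolic synthetase promoters, in 1 of 14 mitochondrial synthetase promoters and in 1 of 69 promoters of mitochondrial ribosomal protein genes, against 2.52% of all promoters. All 5 cytosolic matches had C at the free base. That form, TGATGCAA, was singled out after the matches were seen and occurred in no other member promoter, against 0.677% of all promoters. The matches are shown with up to 16 bases on each side, in the direction of the motif, with its letters in capitals.
AARS1 (chr16:70289670-70289709, plus strand): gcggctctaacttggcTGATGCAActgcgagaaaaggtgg
CARS1 (chr11:3057402-3057441, plus strand): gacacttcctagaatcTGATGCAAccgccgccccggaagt
IARS1 (chr9:92293687-92293726, plus strand): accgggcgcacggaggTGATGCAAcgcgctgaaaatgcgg
MARS1 (chr12:57488048-57488087, minus strand): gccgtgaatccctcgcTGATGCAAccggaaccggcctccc
NARS1 (chr18:57621799-57621838, minus strand): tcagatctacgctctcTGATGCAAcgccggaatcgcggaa
YARS2 (chr12:32756071-32756110, minus strand): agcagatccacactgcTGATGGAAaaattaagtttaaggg
MRPL55 (chr1:228109391-228109430, plus strand): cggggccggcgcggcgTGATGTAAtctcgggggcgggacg

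In 4 of the 5 cytosolic genes the match lay near the start, from position -2 in CARS1, -4 in MARS1, -13 in IARS1 and 14 in NARS1. In AARS1, for alanine, it began at -187. All 5 starts were covered by a region in both lists, as were those of all 96 members with a listed start. Over all protein-coding genes with a listed start the share was 65.1%. The strongest gene-end regions had folds of 9.55 in R1 and of 9.43 in R2 at AARS1, 8.21 and 7.66 at CARS1, 9.29 and 8.88 at IARS1, 8.37 and 7.36 at MARS1, and 8.44 and 8.43 at NARS1. Their median percentiles were 79.1 and 79.6, against 79.5 and 77.8 for the other cytosolic promoters, without the letters.

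The strongest gene-end regions, which for some genes lie away from the promoter searched, were also set beside the motifs. Those of mitochondrial ribosomal protein genes with the YY1 letters had median percentiles of 83.0 in R1 and 80.9 in R2, against 90.4 and 90.5 for those without. Over all protein-coding genes it was the other way round, with 78.6 and 79.4 with the letters against 71.5 and 72.1 without. For the ETS letters, mitochondrial ribosomal protein genes had 89.3 and 88.5 with them against 88.0 and 88.3 without, and all protein-coding genes 80.4 and 81.2 against 69.7 and 70.6. These are descriptions of pooled lists and were not tested.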

How the data were processed

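ATAC-seq libraries were prepared from wild-type hTERT-RPE1 cells by Tn5 tagmentation of isolated nuclei, per the labels' protocols. The authors deposited 1 merged peak list for each set of 3 libraries, with the build hg38 named in the submitters' processing notes. Whether the 3 libraries of a set came from separate cultures is not stated, and no aligner, peak caller, setting or shift for Tn5 is named in the sources used here. The fold column of each list (a ratio to local background at the summit) and its −log10 p-value and q-value columns were used as deposited by the authors, and the deposited score column repeats the q-value and was not used.

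Values were taken from each list separately, with regions read as 1-based intervals. Percentiles of fold were computed within a list, since levels of a region in lists called separately show no change. The fragment number over a summit was solved as the whole number that gives both the deposited fold and the deposited p-value, and it did so within 0.001 for 100% of regions. It is an inference that assumes a pseudocount of 1 and a Poisson test, with no library totals behind it. The counted unit is called a fragment here, though the sources do not name it. The interval overlap and this step were tested on simulated data, with 0 errors in 4000 overlaps and 0 errors in 4890 regions. The simulated regions followed the same assumptions, so that check covers the arithmetic alone. Gene intervals and promoter sequences came from RefSeq tables of GRCh38.p14, of the same build as the lists. Promoters run from 250 bases before to 50 bases from a listed start, 1 for each gene, and motifs were searched on both strands. Analyses used Python 3.11.15 with numpy 2.4.6, pandas 2.3.3 and scipy 1.17.1, and figures matplotlib 3.10.9.

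No test was made, because each set has 1 pooled list. In each class the 3 genes with the highest and the 3 with the lowest mean percentile were named, with the 2 widest regions, genes without a region, regions shared by members and the genes with most regions within 50000 bp. A gene that this rule names is not reported here. Other named genes were picked by role or for a count, with their values known. The member genes, the other lists and the motifs were chosen with earlier results of these data known. Alternatives covered the window, the overlap, the q-value, the start in place of either end, p-value in place of fold, and shared regions.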

Additional observations from a re-analysis of the deposited data

How the results depend on the processing

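The 80 alternative counts of genes with a region covered windows of 500 and 2000 bp, overlap rules, q-value and fold minimums, single lists and listed starts. All lay within 1.5 times the count reported, but the member counts lay near their ceiling, so this limit could hardly be passed. With regions at or above the median fold, counts were 73 of 77 mitochondrial ribosomal protein genes, 32 of 34 synthetases and 11448 of 19970 protein-coding genes. At listed starts they were 69 of 69, 27 of 27 and 11741 of 15811. The median percentiles, judged by another limit, moved in 18 of 30 alternatives by more than the SD between the R1 and R2 values. For the mitochondrial ribosomal protein genes they were 88.1 in R1 and 88.3 in R2 with 2000 bp, 88.0 and 87.4 at listed starts, 89.3 and 88.8 without genes whose region lies at another gene's end, and 97.4 and 97.5 by −log10 p-value. For the mitochondrial synthetases they were 81.2 and 80.7 at listed starts, 79.2 and 86.0 without shared regions, and 96.0 and 95.0 by p-value. For the cytosolic synthetases they were 85.4 and 84.8 without shared regions and 96.7 and 95.7 by p-value. All protein-coding genes had 71.7 and 72.7 at listed starts, 70.9 and 71.7 without shared regions, and 90.3 and 91.6 by p-value. By p-value the cytosolic synthetases thus ranked above the mitochondrial ones in both lists, the reverse of fold, and the cause was not tested. Leaving out GARS1 and KARS1, or counting each shared region once, was added after seeing the data and changed no count beyond the genes removed. No paired analysis was possible because each list pools the 3 libraries of its set, and for the same reason no library could be left out. The lists hold called regions alone, so a gene without one cannot be given a level.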
